A study of Homo sapiens with 6 samples.

Results

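The genes described here are 10 carriers that move amino acids across the plasma membrane: SLC7A5, SLC3A2, SLC43A1, SLC7A1, SLC7A6, SLC1A5, SLC1A4, SLC38A2, SLC38A1 and SLC6A9. They were chosen by name and function, with earlier results of these data known. SLC7A11, the cystine carrier, was set aside with the genes of cysteine metabolism. All 10 were among the 18806 gene symbols of the deposited table and all 10 passed the filter on low values, as did 10911 symbols in all. The cells were Mono-Mac-6, an established line of human monocytic leukaemia (AML) that carries the MLL-AF9 fusion. METTL1, the targeted gene, encodes the enzyme that places 7-methylguanosine on a set of transfer RNAs. The study asked how transcripts differ between cells given a METTL1 guide RNA and cells given a control guide. Libraries of poly(A)-selected RNA came from 3 groups with 2 libraries each, labelled sgMETTL1.3, sgMETTL1.6 and sgNS, of which sgNS is the control guide.

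All 3 groups share the same Cas9-expressing single clone, the lentiviral delivery of the guide and the selection with 2 antibiotics, hygromycin B at 200 µg/ml and blasticidin at 10 µg/ml, and were harvested about 8 to 10 days after transduction. The medium, RPMI with 10% FBS, was supplied with 2 mM L-glutamine and 1x non-essential amino acids. The line is 1 clone, so a trait of that clone is carried by every library. The labels call the libraries of a group replicates without saying that they came from separate cultures, so p-values rest on the spread between libraries alone, and that spread may be technical.

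Amino acid carriers are sorted by the substrates they accept and by whether they exchange or accumulate them. System L brings in leucine and other large neutral amino acids in exchange for internal ones, systems A and ASC handle small and polar neutral ones such as alanine, serine and glutamine, and systems y+ and y+L handle arginine and lysine. Proliferating leukaemia cells take up large amounts of leucine and glutamine through them, and many of their genes are known targets of ATF4, a transcription factor made when amino acids run short.

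Values are TPM, relative transcript levels corrected for transcript length and scaled to the same total in every library, so that levels may be compared between genes; sequencing depth is unknown and no counting error can be given. In bulk RNA, fewer cells of a type and less RNA per cell cannot be told apart. METTL1 mRNA stood at 18.29 and 16.56 TPM in the libraries labelled sgMETTL1.3 and at 11.15 and 11.69 TPM in the libraries labelled sgMETTL1.6, against 15.38 and 13.89 TPM in the sgNS libraries. Its log2 change against sgNS was 0.24 with sgMETTL1.3 (limma, adjusted p = 0.011) and -0.33 with sgMETTL1.6 (adjusted p = 0.0017). It was thus higher than control in the libraries labelled sgMETTL1.3 and lower in the libraries labelled sgMETTL1.6. Every direction below is drawn from the libraries as labelled. Small insertions and deletions made by Cas9 are not read by gene-level TPM. The loss of the protein, checked by the submitters with a western blot, is not used here. Of 9 markers of monocytic cells or of the line, CD33, LYZ, CD68, FLT3, ITGAM and FCGR1A were tested, and CD14, CSF1R and CD4 were under 1 TPM in all libraries. Over both guides 5 of these 6 markers were called lower and 0 higher (26.8% and 32.6% of all tested genes), or 4 and 1 with quantile normalization. Their summed level was 12445 and 12302 TPM in the libraries labelled sgMETTL1.3, 11298 and 10832 TPM in the libraries labelled sgMETTL1.6, and 13532 and 12978 TPM in the sgNS libraries and LYZ, which encodes lysozyme, makes up most of it. Without LYZ and FLT3 the sum was 82.2% of the sgNS mean with sgMETTL1.3 and 75.1% with sgMETTL1.6, and CD68 makes up most of it. Of the sgNS mean, CD33 stood at 99.5% with sgMETTL1.3 and 101% with sgMETTL1.6. In the same order FCGR1A stood at 56.0% and 52.1%, and ITGAM at 49.9% and 61.8%. The part of these markers in the results was not tested. The 11 markers of T, B, red blood, platelet, epithelial and stromal cells were under 1 TPM everywhere, 7 of them at 0.

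The transport genes were lower with both METTL1 guides, with 1 exception. Compared with the sgNS libraries, 9 of the 10 fell over the 4 METTL1 guide libraries, and SLC7A6, an arginine and glutamine exchanger, was slightly higher (limma on log2(TPM + 1), Benjamini-Hochberg adjusted p under 0.05 over all tested genes). Among all 10911 tested genes, 26.8% were called lower, 32.6% higher and 59.4% in either direction. The same 9 fell with each guide alone, where 24.2% of tested genes were called lower with sgMETTL1.3 and 25.3% with sgMETTL1.6. In either direction, 58.5% of tested genes were called with sgMETTL1.3 (34.3% higher) and 51.0% with sgMETTL1.6 (25.7% higher). A log2 change of -0.5 or lower over both guides was reached by 9 of the 10 and by 5.43% of tested genes; 6 of the 10 had a log2 change of -1 or lower over both guides, against 1.33% of tested genes, and the median of the 10 was -1.26, against 0.02 over all tested genes. In 9 of the 10, every METTL1 guide library lay below both sgNS libraries, an order seen in 27.3% of tested genes. A log2 change of -1 or lower was reached by 5 of the 10 with sgMETTL1.3 (1.35% of tested genes) and by 7 with sgMETTL1.6 (1.38%).

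**Figure D1:**
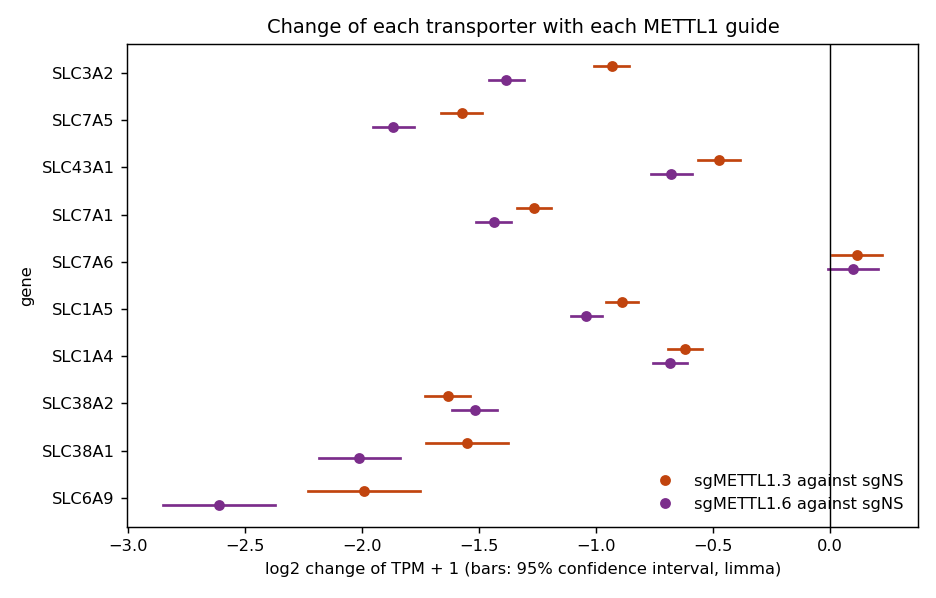
Log2 change of TPM + 1 for each of the 10 carriers, in the libraries labelled sgMETTL1.3 and sgMETTL1.6, each against sgNS, with 95% confidence intervals from limma as bars. All but SLC7A6 lie left of 0 with both guides, and SLC6A9 lies farthest left, at -1.99 with sgMETTL1.3 and -2.61 with sgMETTL1.6.

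Stretches of the promoters are shown because 9 of the 10 genes moved together and several are known ATF4 targets. The RefSeq table (GRCh38.p14) gave 17 windows for the 10 genes, each covering 250 bases before and 50 after a transcription start. The letters TGATGNAA, the core of the amino acid response element, were found on either strand in the windows of 5 of the 10 genes. The share was 4.46% of 27305 genes with a window and 2.56% of the tested genes with one. Since several of the 10 are known ATF4 targets, a higher share among them could be foreseen and is no test. Each stretch below runs 5′ to 3′ along the gene's own strand, with the match in capitals, and the match reads on the opposite strand in SLC1A4 and SLC3A2.
SLC7A1: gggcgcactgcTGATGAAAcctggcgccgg
SLC38A1: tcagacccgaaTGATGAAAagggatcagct
SLC1A5: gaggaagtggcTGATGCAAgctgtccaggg
SLC1A4: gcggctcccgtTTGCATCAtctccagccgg
SLC3A2: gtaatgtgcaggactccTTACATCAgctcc

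These stretches lie at chr13:29595663-29595692 (minus strand) for SLC7A1, chr12:46266502-46266531 (minus) for SLC38A1, chr19:46784893-46784922 (minus) for SLC1A5, chr2:64989381-64989410 (plus) for SLC1A4 and chr11:62881719-62881748 (plus) for SLC3A2. The SLC1A5 and SLC3A2 matches each lie at 1 of 3 annotated starts, and the SLC38A1 and SLC1A4 matches each at 1 of 2. All 5 of these genes fell, but so did SLC7A5, SLC38A2, SLC6A9 and SLC43A1, whose windows do not hold those letters. Sequence outside the windows was not searched, so a match elsewhere in or near these genes would be missed. Across the tested genes with a window, 40.6% of the 219 that hold TGATGNAA were called lower over both guides, against 26.5% of all 8564, and the median log2 change of the 219 was -0.06. For the other motifs searched, described next, the share called lower was 25.6% with CACGTG, 26.2% with TGACGTCA and 26.4% with CCAAT. The 219 include the 5 carriers shown above, and the share called higher was not computed. Differences between these shares were not tested, nor was a part of ATF4 in the falls. The E-box CACGTG, bound by MYC and its relatives, was found in the windows of 3 of the 10 genes, against 8.77% of all genes with a window and 13.1% of the tested genes with one. The 10 genes have 17 windows, 1.70 per gene, against 1.29 over all genes. Those stretches lie at chr16:87869620-87869649 (minus) for SLC7A5, chr19:46787326-46787355 (minus) for SLC1A5 and chr11:57515797-57515826 (minus) for SLC43A1.
SLC7A5: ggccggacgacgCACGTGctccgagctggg
SLC1A5: ggcgggagtggtCACGTGgacaggacgggg
SLC43A1: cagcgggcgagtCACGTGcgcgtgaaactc
The cyclic AMP response element TGACGTCA was in the windows of 0 of the 10 genes, against 2.25% of all genes and 3.88% of tested genes, and CCAAT was in 4 of the 10, against 39.7% and 43.8%. A match describes letters only.

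SLC3A2 encodes the heavy chain CD98, the single-pass glycoprotein that brings several SLC7A light chains to the cell surface. The gene lies at chr11:62856102-62888875 (plus strand; this and the gene positions that follow are from GENCODE 29 on GRCh38). It stood at 213.45 TPM in both libraries labelled sgMETTL1.3 and at 152.61 and 159.47 TPM in the libraries labelled sgMETTL1.6, against 404.59 and 412.96 TPM in the sgNS libraries. The 3 groups did not overlap, with sgMETTL1.6 lowest and sgNS highest. The fall over both guides was a log2 change of -1.16 ± 0.030 (SE; limma, adjusted p = 3.1e-12). That SE, like those given for the genes below, rests on the spread within groups and leaves out the difference between the guides. For SLC3A2 the log2 change was -0.93 with sgMETTL1.3 alone and -1.38 with sgMETTL1.6 alone. Mean levels were 52.2% of the sgNS mean with sgMETTL1.3 and 38.2% with sgMETTL1.6.

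SLC7A5, or LAT1, is the light chain that carries leucine and other large neutral amino acids as a partner of SLC3A2 (chr16:87830023-87869488, minus strand). It stood at 115.43 and 122.12 TPM in the libraries labelled sgMETTL1.3 and at 94.53 and 98.99 TPM in the libraries labelled sgMETTL1.6, against 350.15 and 361.31 TPM in the sgNS libraries. No group overlapped another, and the distance to sgNS was far larger than the spread within any group. The log2 change over both guides was -1.72 ± 0.035 (SE; limma, adjusted p = 3.3e-13), rank 42 from the lowest of all tested genes. Its pseudogenes SLC7A5P1 and SLC7A5P2, also on chromosome 16, can share its reads.

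SLC7A11, the cystine and glutamate exchanger that also pairs with SLC3A2, stood at 21.94 and 21.13 TPM in the libraries labelled sgMETTL1.3 and 13.80 and 12.74 TPM in the libraries labelled sgMETTL1.6, against 75.34 and 71.18 TPM in the sgNS libraries (log2 change over both guides -2.05, limma, adjusted p = 1.5e-12). SLC7A7, a further partner of SLC3A2, was between 1.57 and 2.79 TPM in all libraries and had a log2 change of -0.43 (adjusted p = 0.0014). SLC7A8 and SLC7A10 were under 1 TPM in all of them. The group mean of the summed light chains (SLC7A5, SLC7A6, SLC7A7, SLC7A8, SLC7A10 and SLC7A11) was 179 TPM for sgMETTL1.3, 149 TPM for sgMETTL1.6 and 466 TPM for sgNS. The ratio of SLC3A2 to their summed TPM was 1.21 and 1.17 in the libraries labelled sgMETTL1.3, 1.05 and 1.05 in the libraries labelled sgMETTL1.6, and 0.877 and 0.878 in the sgNS libraries. All 4 METTL1 guide libraries lay above both sgNS libraries. The exact two-sided permutation test gave p = 0.133, the smallest that the 15 splits of 4 against 2 libraries allow, so this test cannot reach 0.05. SLC7A5 made up 66.2% of the summed light chains with sgMETTL1.3 and 65.1% with sgMETTL1.6, against 76.4% with sgNS.

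SLC43A1, or LAT3, carries large neutral amino acids by facilitated diffusion and needs no heavy chain (chr11:57484534-57515786, minus strand). It fell least of the 9. It stood at 99.24 and 104.40 TPM in the libraries labelled sgMETTL1.3 and 86.76 and 89.84 TPM in the libraries labelled sgMETTL1.6, against 139.96 and 143.97 TPM in the sgNS libraries, again with no overlap between groups. The log2 change over both guides was -0.58 ± 0.036 (SE; limma, adjusted p = 2.4e-08). The ratio of SLC7A5 to SLC43A1 was 1.16 and 1.17 in the libraries labelled sgMETTL1.3 and 1.09 and 1.10 in the libraries labelled sgMETTL1.6, against 2.50 and 2.51 in the sgNS libraries (exact two-sided permutation p = 0.133).

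**Figure D2:**
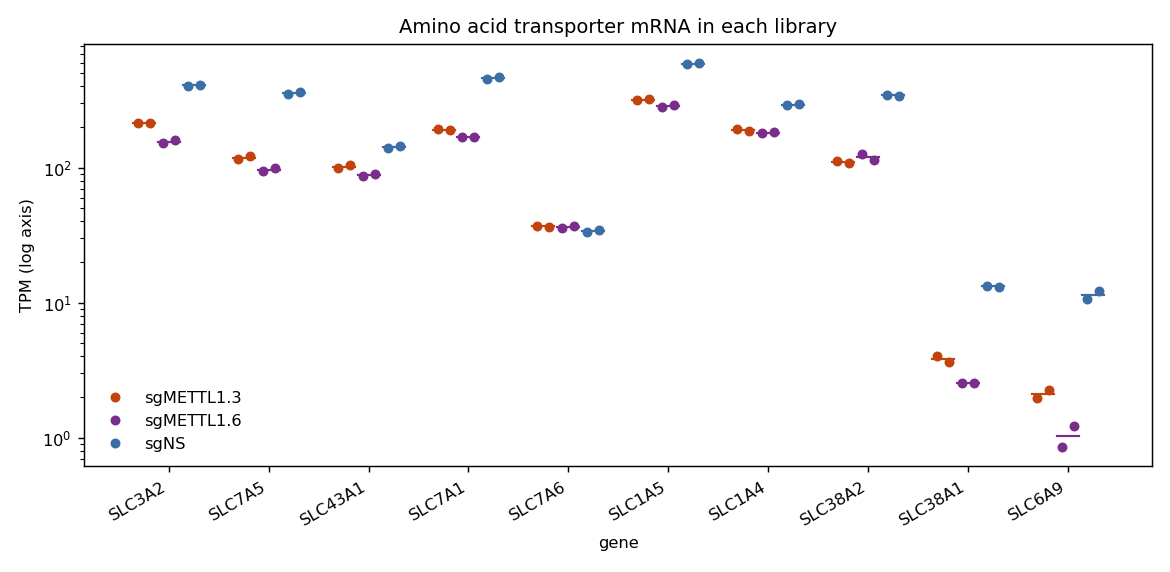
TPM (log axis) of each carrier in every library, grouped as sgMETTL1.3, sgMETTL1.6 and sgNS; dots are libraries and short lines are group means. The guide libraries lie below the sgNS libraries for every gene except SLC7A6, and the libraries of 1 group lie close together beside that gap.

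SLC7A1, or CAT1, is the main carrier of arginine and lysine of system y+ (chr13:29509410-29595688, minus strand; its response-element letters are shown above). It stood at 192.28 and 190.62 TPM in the libraries labelled sgMETTL1.3 and 169.11 and 170.17 TPM in the libraries labelled sgMETTL1.6, against 451.64 and 472.08 TPM in the sgNS libraries. The groups did not overlap and the order was again sgMETTL1.6, sgMETTL1.3, sgNS, lowest first. The log2 change over both guides was -1.35 ± 0.029 (SE; limma, adjusted p = 6.1e-13).

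SLC7A6, or y+LAT2, is a light chain of SLC3A2 that exports arginine in exchange for neutral amino acids and sodium (chr16:68264516-68301823, plus strand). Its levels were 37.20 and 36.69 TPM in the libraries labelled sgMETTL1.3 and 35.54 and 37.32 TPM in the libraries labelled sgMETTL1.6, against 33.28 and 34.76 TPM in the sgNS libraries. All guide libraries lay above both controls, an order seen in 32.9% of tested genes, but the gap was small. Its log2 change was 0.11 ± 0.043 (SE; limma, adjusted p = 0.048) over both guides, 0.12 (adjusted p = 0.060) with sgMETTL1.3 alone and 0.10 (adjusted p = 0.13; 95% interval -0.01 to 0.20) with sgMETTL1.6 alone. The call over both guides was lost in 11 of 15 alternatives, with adjusted p up to 0.31 without sgNS replicate 1, and also without sgNS replicate 2, either sgMETTL1.3 library or sgMETTL1.6 replicate 2. SLC7A6 overlaps SLC7A6OS on the opposite strand, which had a log2 change of 0.33 (adjusted p = 0.00014). Whether counting used strand is not given in the sources used here, so reads of the 2 genes cannot be told apart. The ratio of SLC7A1 to SLC7A6 was 5.17 and 5.20 in the libraries labelled sgMETTL1.3 and 4.76 and 4.56 in the libraries labelled sgMETTL1.6, against 13.57 and 13.58 in the sgNS libraries (exact two-sided permutation p = 0.133).

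The ASC exchangers SLC1A5 and SLC1A4 carry the small neutral amino acids alanine, serine and cysteine, and SLC1A5 also carries glutamine. SLC1A5, or ASCT2, lies at chr19:46774883-46788594 (minus strand). It was the most abundant of the 10 in every group, with 315.29 and 321.33 TPM in the libraries labelled sgMETTL1.3 and 282.42 and 289.93 TPM in the libraries labelled sgMETTL1.6, against 585.88 and 594.95 TPM in the sgNS libraries. No group overlapped another, and the log2 change over both guides was -0.97 ± 0.027 (SE; limma, adjusted p = 7.1e-12).

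SLC1A4, or ASCT1, lies at chr2:64988477-65023865 (plus strand). It stood at 194.14 and 187.23 TPM in the libraries labelled sgMETTL1.3 and 181.83 and 182.60 TPM in the libraries labelled sgMETTL1.6, against 292.15 and 295.43 TPM in the sgNS libraries. The guide groups lay close together and well below control, with a log2 change over both guides of -0.65 ± 0.029 (SE; limma, adjusted p = 9.5e-10). The ratio of SLC1A5 to SLC1A4 was 1.62 and 1.72 in the libraries labelled sgMETTL1.3 and 1.55 and 1.59 in the libraries labelled sgMETTL1.6, against 2.01 in both sgNS libraries, with exact two-sided permutation p = 0.133.

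System A carriers take up small neutral amino acids with sodium. SLC38A2, or SNAT2, the member known to be induced when amino acids are withdrawn, lies at chr12:46358189-46372867 (minus strand). It stood at 111.75 and 108.54 TPM in the libraries labelled sgMETTL1.3 and 125.41 and 113.86 TPM in the libraries labelled sgMETTL1.6, against 346.07 and 342.73 TPM in the sgNS libraries. All guide libraries lay far below both controls, and the group mean was 110.1 TPM for sgMETTL1.3 and 119.6 TPM for sgMETTL1.6. The log2 change over both guides was -1.58 ± 0.038 (SE; limma, adjusted p = 1.6e-12).

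SLC38A1, or SNAT1, lies beside it on chromosome 12 (chr12:46183063-46270017, minus strand) and was far less abundant. It stood at 4.06 and 3.65 TPM in the libraries labelled sgMETTL1.3 and at 2.53 TPM in both libraries labelled sgMETTL1.6, against 13.35 and 13.13 TPM in the sgNS libraries. No group overlapped another. The log2 change over both guides was -1.78 ± 0.070 (SE; limma, adjusted p = 2.4e-10) and was -1.16 with a pseudocount of 5 in place of 1, since its levels are low. The ratio of SLC38A2 to SLC38A1 was 27.5 and 29.7 in the libraries labelled sgMETTL1.3 and 49.6 and 45.0 in the libraries labelled sgMETTL1.6, against 25.9 and 26.1 in the sgNS libraries (exact two-sided permutation p = 0.133).

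SLC6A9, or GLYT1, takes up glycine (chr1:43991500-44031467, minus strand) and was the lowest of the 10 in every group. It stood at 1.97 and 2.26 TPM in the libraries labelled sgMETTL1.3 and 0.85 and 1.22 TPM in the libraries labelled sgMETTL1.6, against 10.65 and 12.16 TPM in the sgNS libraries. The groups did not overlap, and the mean levels were 18.5% of the sgNS mean with sgMETTL1.3 and 9.07% with sgMETTL1.6. Its log2 change over both guides, -2.30 ± 0.096 (SE; limma, adjusted p = 4.3e-10), had rank 17 from the lowest of all tested genes. With a pseudocount of 5 it was -1.32, a smaller fall than those of SLC7A5 (-1.68), SLC38A2 (-1.55) and SLC7A1 (-1.33). The mean of SLC6A9 over all libraries was below 5 TPM, so it drops out under that stricter filter.

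**Figure D3:**
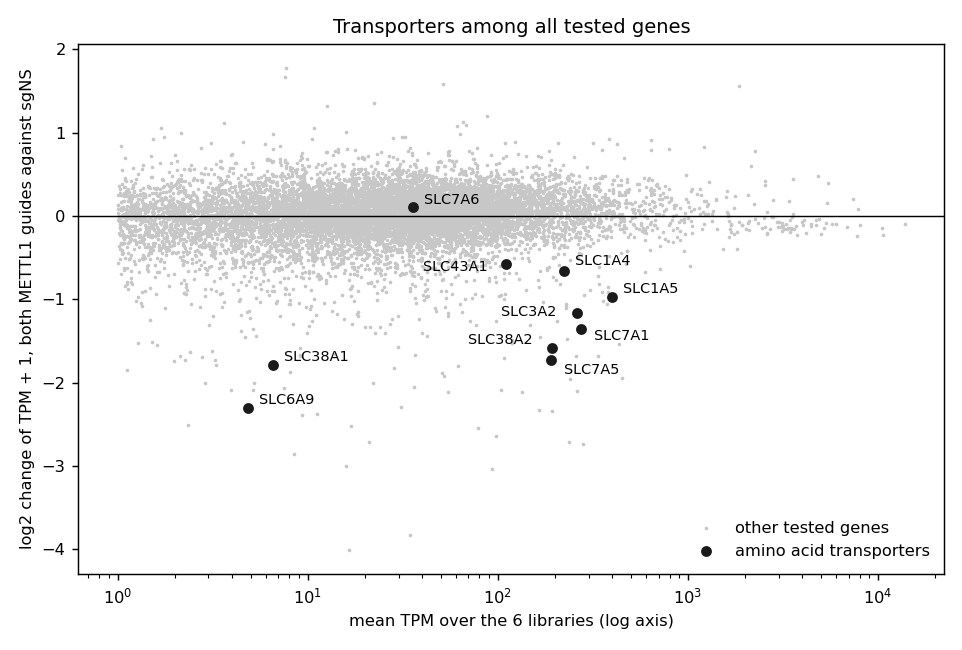
Log2 change of TPM + 1 over both METTL1 guides against sgNS (vertical axis) beside the mean TPM of each gene (log axis), with all 10911 tested genes in grey and the 10 carriers marked. The carriers other than SLC7A6 lie below 0 at both high and low levels, from -0.58 for SLC43A1 to -2.30 for SLC6A9.

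Summed over the 10 genes, the carriers stood at 1285 and 1290 TPM in the libraries labelled sgMETTL1.3 and 1132 and 1146 TPM in the libraries labelled sgMETTL1.6, against 2628 and 2683 TPM in the sgNS libraries. The guide groups were thus at 48.5% and 42.9% of the sgNS mean. The sum was 0.129% of all TPM with sgMETTL1.3 and 0.114% with sgMETTL1.6, against 0.266% with sgNS, and the exact two-sided permutation p was again 0.133 (0.133 after Benjamini-Hochberg adjustment over the 6 sums and ratios tested). Within the sum, SLC1A5 made up 24.7% with sgMETTL1.3, 25.1% with sgMETTL1.6 and 22.2% with sgNS, whereas SLC7A5 made up 9.22%, 8.50% and 13.4% in the same order. SLC7A6 made up 2.87% with sgMETTL1.3 and 3.20% with sgMETTL1.6, against 1.28% with sgNS.

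**Figure D4:**
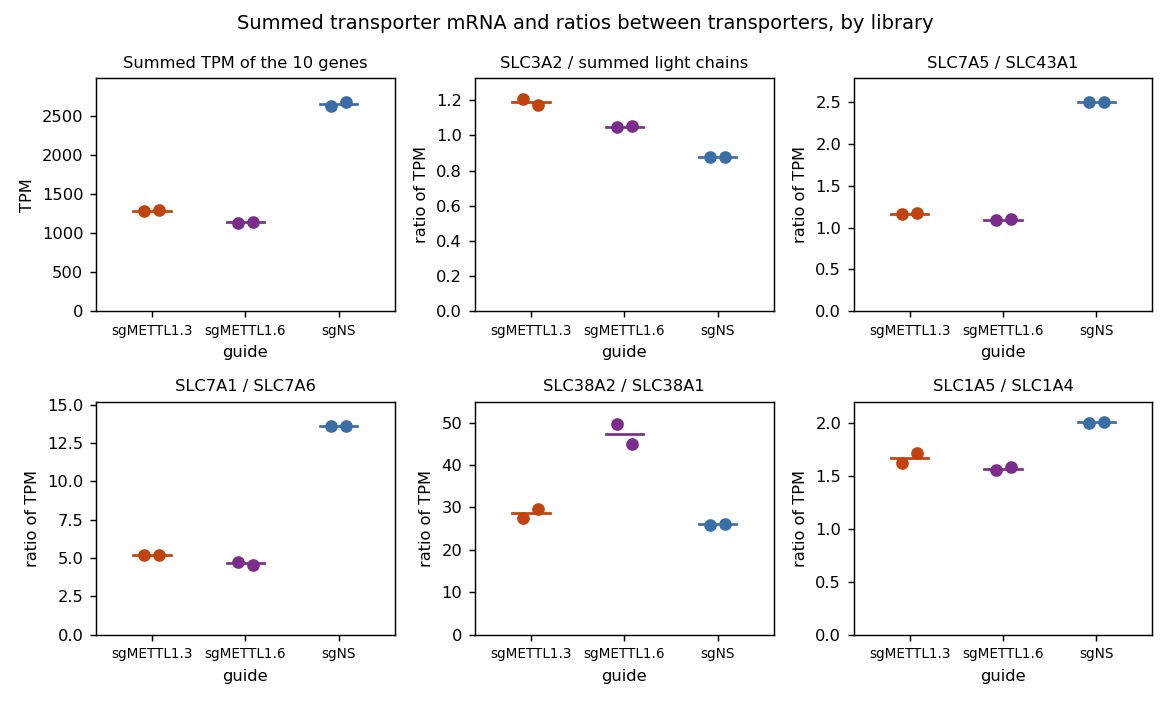
Summed TPM and ratios of TPM by library, in 6 panels with axes that start at 0, in the groups sgMETTL1.3, sgMETTL1.6 and sgNS. The summed carriers lie below sgNS in all 4 guide libraries, and the ratio of SLC3A2 to its light chains lies above it.

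By level, SLC1A5 was first and SLC43A1, SLC7A6, SLC38A1 and SLC6A9 were the last 4 in all 3 groups, while the middle ranks changed. With sgMETTL1.3 the order after SLC1A5 was SLC3A2, SLC7A1, SLC1A4, SLC7A5, SLC38A2; of all neighbours in that order, SLC7A1 and SLC1A4 overlapped in their library values. With sgMETTL1.6 the order after SLC1A5 was SLC1A4, SLC7A1, SLC3A2, SLC38A2, SLC7A5, with no overlap between neighbours. With sgNS it was SLC7A1, SLC3A2, SLC7A5, SLC38A2, SLC1A4, also with no overlap. SLC1A4 thus stood last of these 5 in the sgNS libraries and first of them with sgMETTL1.6.

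Between the guides, 7 of the 10 were lower with sgMETTL1.6 than with sgMETTL1.3 and 3 were not called, while 15.8% of all tested genes were called lower, 7.23% higher and 23.0% in either direction. That split of all genes depends on scaling: it was 1721 lower and 789 higher as deposited, but 809 lower and 1102 higher with median-ratio scaling, 803 and 974 with quantile normalization, and 978 and 942 with ribosomal protein genes left out of the total. The 7 were called lower under each of these scalings. For sgMETTL1.6 against sgMETTL1.3, the log2 change was -0.62 for SLC6A9 (limma, adjusted p = 0.0023; -0.24 with a pseudocount of 5), -0.46 for SLC38A1 (adjusted p = 0.0020; -0.23 with a pseudocount of 5), -0.45 for SLC3A2 (adjusted p = 3.2e-06) and -0.29 for SLC7A5 (adjusted p = 0.00042). The remaining 3 of the 7 had smaller values, namely -0.20 for SLC43A1 (adjusted p = 0.0048), -0.17 for SLC7A1 (adjusted p = 0.0040) and -0.15 for SLC1A5 (adjusted p = 0.0048). The SLC43A1 call was lost without sgMETTL1.3 replicate 2 (adjusted p = 0.053).

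SLC38A2 had a log2 change of 0.12 between the guides (95% interval 0.02 to 0.21; limma, adjusted p = 0.073). It was called higher with sgMETTL1.6 under median-ratio scaling, quantile normalization, the total without ribosomal protein genes, the replicate block (adjusted p = 0.020) and without sgMETTL1.6 replicate 2 (adjusted p = 0.0066). SLC1A4 and SLC7A6 were not called, with intervals of -0.14 to 0.01 and -0.13 to 0.09. Both sgMETTL1.6 libraries lay below both sgMETTL1.3 libraries in 8 of the 10, against 43.0% of tested genes. In the same 8, libraries of sgMETTL1.6 were lowest, then sgMETTL1.3, then sgNS, with no overlap, an order seen in 8.72% of tested genes. Both orders were read from TPM as deposited and were not recomputed with the other scalings. SLC1A4 is among the 8, though its nearest guide libraries stood at 187.23 TPM (sgMETTL1.3) and 182.60 TPM (sgMETTL1.6).

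Other plasma membrane amino acid carriers were called in both directions, in shares near those of all genes. Of 27 further carriers listed, 26 were in the table and 19 were under 1 TPM in all libraries, so that 7 were tested, and over both guides 3 were higher, 2 lower and 2 not called, against 32.6% of all tested genes higher and 26.8% lower, with a median log2 change of 0.10. SLC1A3, a glutamate carrier, stood at 60.11 and 58.85 TPM in the libraries labelled sgMETTL1.3 and 53.74 and 54.09 TPM in the libraries labelled sgMETTL1.6, against 35.86 and 35.21 TPM in the sgNS libraries (log2 change 0.66, limma, adjusted p = 1.2e-08). SLC38A5, a glutamine carrier, and SLC43A2, a relative of SLC43A1, had log2 changes of 0.37 (adjusted p = 6.4e-05) and 0.48 (adjusted p = 0.00012). SLC7A2, a cationic carrier related to SLC7A1, had one of -0.37 (adjusted p = 0.00016). The summed level of the list was 154 and 155 TPM in the libraries labelled sgMETTL1.3, 136 and 140 TPM in the libraries labelled sgMETTL1.6, and 115 and 118 TPM in the sgNS libraries; it was not tested.

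Amino acid and peptide carriers of the lysosome return the products of protein breakdown to the cytosol. Of 10 listed, 8 were tested, and over both guides 5 were higher (4 without sgNS replicate 1), 1 lower and 2 not called, against 32.6% of all tested genes higher and 26.8% lower; the median log2 change was 0.24. With sgMETTL1.3 alone 6 of the 8 were higher and 1 lower (34.3% and 24.2% of tested genes), and with sgMETTL1.6 alone 3 were higher and 1 lower (25.7% and 25.3%), with medians of 0.34 and 0.08. SLC15A4, a peptide and histidine carrier, had a log2 change of 0.46 (limma, adjusted p = 3.0e-05), SLC36A1, a proton-coupled amino acid carrier, one of 0.42 (adjusted p = 1.1e-05) and SLC36A4 one of 0.30 (adjusted p = 0.00013). The gene that was lower was SLC38A9, the arginine sensor of the mTORC1 pathway, at 27.12 and 27.64 TPM in the libraries labelled sgMETTL1.3 and 25.67 and 24.50 TPM in the libraries labelled sgMETTL1.6, against 36.60 and 34.61 TPM in the sgNS libraries (log2 change -0.43, adjusted p = 4.1e-06).

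**Figure D5:**
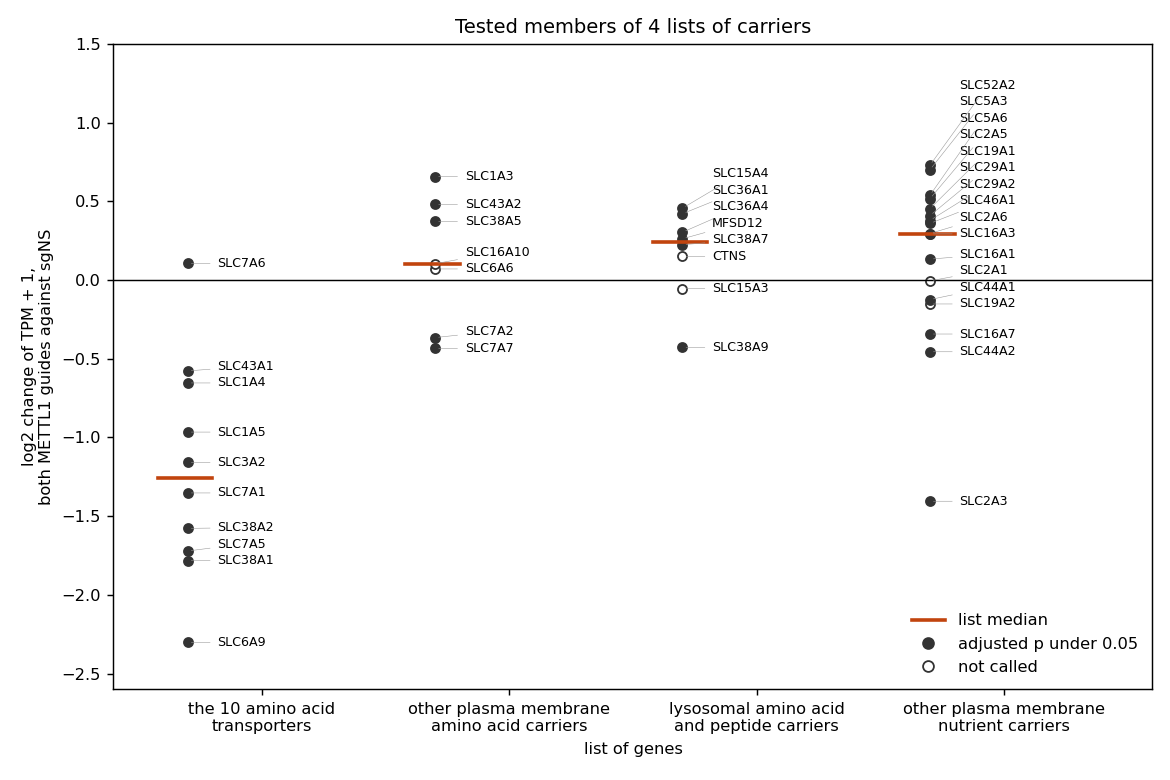
Log2 change of TPM + 1 over both METTL1 guides against sgNS for the tested genes of 4 lists; filled points are genes past the test, open points are not, and lines are medians. The median is -1.26 for the 10 carriers and 0.10 for the other plasma membrane amino acid carriers. The lists were drawn up with earlier results of these data known.

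Of 10 listed regulators of these carriers, all were tested: ATF4, ATF3, DDIT3, CEBPB, TRIB3, EIF2AK4, MYC, NEDD4, NEDD4L and LAPTM4B. Over both guides 8 were lower and 2 higher, against 26.8% and 32.6% of all tested genes, with a median log2 change of -0.57. They are not 10 independent regulators, since TRIB3 is itself induced by ATF4. The falls were uneven, with log2 changes over both guides of -1.89 for CEBPB, -1.31 for DDIT3 and -1.18 for ATF3. For NEDD4 the log2 change was -0.56 and for MYC -0.29. The smallest fall was that of LAPTM4B, at -0.09 over both guides and 0.03 with sgMETTL1.6 alone. With sgMETTL1.6 alone 7 were lower, 1 higher and 2 not called. TRIB3, a pseudokinase induced by ATF4, stood at 85.98 and 89.29 TPM in the libraries labelled sgMETTL1.3 and 52.73 and 55.88 TPM in the libraries labelled sgMETTL1.6, against 342.12 and 360.98 TPM in the sgNS libraries (log2 change -2.33, limma, adjusted p = 4.3e-14). The mRNA of ATF4 itself had a log2 change of -0.58, which does not give the level of its protein. The 2 that were higher were EIF2AK4, the kinase GCN2 that senses uncharged transfer RNA (0.28), and NEDD4L, a ubiquitin ligase (0.29).

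The genes with profiles nearest to SLC7A5 were KIF21B, a kinesin, NDUFA4L2, GARS, the glycyl-tRNA synthetase, ASS1, which makes argininosuccinate for arginine synthesis, and FYN, a tyrosine kinase, at Euclidean distances of 0.14, 0.15, 0.23, 0.25 and 0.285 over the 6 libraries on the log2(TPM + 1) scale after the sgNS mean was subtracted. Those nearest to SLC3A2 were ATF3, a stress-induced transcription factor (0.090), SEMA4A (0.15), NCOA7 (0.15), MX1, an interferon-induced GTPase (0.15), and ERN1, the stress sensor IRE1 (0.19). Among the 10 carriers, SLC38A1 lay nearest to SLC7A5 (0.26) and SLC7A1 nearest to SLC3A2 (0.48). These distances rest on 6 libraries in which the same 2 control libraries set the zero. They describe likeness on the log2(TPM + 1) scale alone, which understates the change of low genes. FYN had means of 1.065 TPM (sgMETTL1.3), 0.95 TPM (sgMETTL1.6) and 5.225 TPM (sgNS). NDUFA4L2 had 1.585, 1.145 and 7.095 TPM in the same order. Both thus fell by a larger factor in TPM than SLC7A5, despite the short distance.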

How the data were processed

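Poly(A) RNA was sequenced from 6 libraries, 2 in each of 3 groups, with a stranded kit per the labels' protocols. The authors deposited TPM in 1 table of 18806 symbols; it was made with RSEM 1.2.31 on GRCh38 per the submitters' processing notes. The aligner, the annotation and whether strand was used were not given in the sources used here. TPM sums to the same total in every library, so abundant genes shift the others, and it keeps no depth. The 6 columns were matched to samples by name; each name carries the letters EV, which the labels do not explain. No value column was left unmapped (0). RNA extraction is given as TRIzol in the protocol and QIAzol in the design text.

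Values were taken as log2(TPM + 1), which understates the change of low genes. The 10911 genes whose mean reached 1 TPM were fitted with limma 3.58.1 in R 4.3.3, all 3 groups in 1 model with a variance trend (3 residual and 9.84 prior degrees of freedom). Genes with a Benjamini-Hochberg adjusted p under 0.05 over all tested genes were called. Sums and ratios were tested by exact permutation over the 15 splits. The limma fit was tried on simulated data with normal noise and far fewer changed genes than were called here. That trial does not show how the calls behave in these data. The 10 genes, the other gene lists and the tests were chosen with earlier results of these data known. The text names all 10 genes, METTL1, SLC7A11 and the 5 nearest profiles of SLC7A5 and SLC3A2. It also names all listed regulators and monocytic or line markers, and up to 4 called genes of lowest p of each other list. The pseudogene, overlapping and remaining light-chain genes were named for their place beside these genes. Positions come from GENCODE 29 and promoter sequences from RefSeq (GRCh38.p14), in which all 10 genes matched. The alternatives were other pseudocounts, filters and scalings, no variance trend, the replicate number as a block and each library left out.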

Additional observations from a re-analysis of the deposited data

Results flagged for a closer look

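The libraries of the 2 METTL1 guides differed from each other in 7 of the carriers. For sgMETTL1.6 against sgMETTL1.3 the log2 change was -0.29 for SLC7A5, -0.45 for SLC3A2, -0.17 for SLC7A1, -0.46 for SLC38A1, -0.15 for SLC1A5, -0.62 for SLC6A9 and -0.20 for SLC43A1 (limma, each past the adjusted threshold of 0.05). Each of these 7 was lower than sgNS with both guides. With groups of 2 libraries, no test for a library far from its group could be made.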

How the results depend on the processing

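The 9 falls against sgNS kept their direction and their call in all 402 recomputed values, over both guides and each guide alone; the carriers' summed TPM stayed between 0.447 and 0.467 times the sgNS mean, and the SLC3A2 ratio between 1.24 and 1.31 times. Of 596 member values, 23 changed their call or sign. SLC7A6 for sgMETTL1.6 against sgMETTL1.3 turned from -0.02 to 0.024 with median-ratio scaling, 0.019 with quantile normalization, 0.012 without ribosomal protein genes and 0.014 without sgMETTL1.6 replicate 1, and lay between -0.054 and 0.014 with each library left out; it was called in none of these, and the cause was not tested. Genes called between the guides numbered 2510, but 1023 with no filter on low values and 1409 without the variance trend, which also took the SLC1A5 call between the guides (adjusted p = 0.059); with each library left out they numbered 1215 to 2476. Over both guides, leaving out a library gave 4962 to 6458 called genes, against 6484. The replicate numbers were not taken to pair the samples: with 2 numbers and no label of a shared culture, deviations of same-numbered libraries correlated at -0.005 (sgMETTL1.3 and sgNS), 0.21 (sgMETTL1.6 and sgNS) and 0.15 (sgMETTL1.6 and sgMETTL1.3). With the replicate block, 6976 genes and 10 members were called over both guides, and SLC7A6 passed with sgMETTL1.3 (adjusted p = 0.031). Unknown depth limits the low genes SLC6A9 and SLC38A1 most.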

Other observations

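Carriers of other nutrients in the plasma membrane (sugars, vitamins, inositol and others) were called higher more often than lower. Of 20 listed, 17 were tested, and over both METTL1 guides 11 were higher, 4 lower and 2 not called (32.6% and 26.8% of all tested genes were higher and lower), with a median log2 change of 0.30, against 0.02 over all tested genes. With no filter on low values 18 were tested, and 9 were higher and 4 lower (3240 and 2910 of 15671 tested genes). With sgMETTL1.3 alone 10 of the 17 were higher and 3 lower (34.3% and 24.2% of tested genes). With sgMETTL1.6 alone 11 were higher and 4 lower (25.7% and 25.3%). SLC52A2, a riboflavin carrier, stood at 66.08 and 70.95 TPM in the libraries labelled sgMETTL1.3 and 56.31 and 62.08 TPM in those labelled sgMETTL1.6, against 36.51 and 39.57 TPM in the sgNS libraries (log2 change 0.73, limma, adjusted p = 7.5e-08). SLC5A3, the sodium-coupled myo-inositol carrier, had a log2 change of 0.70 (adjusted p = 2.2e-07), and SLC5A6, which takes up biotin and pantothenate, one of 0.54 (adjusted p = 9.3e-07). SLC2A3, the glucose carrier GLUT3, was the exception named here, at 5.30 and 5.12 TPM in the libraries labelled sgMETTL1.3 and 6.89 and 6.79 TPM in those labelled sgMETTL1.6, against 17.33 and 17.63 TPM in the sgNS libraries (log2 change -1.41, adjusted p = 4.3e-10).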
